A study of Mus musculus with 6 samples.

Results

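Transcripts of 6 genes grouped as inhibitory receptors of myeloid cells, 5 of them with an inhibitory motif in the cytoplasmic part and 1, Lilr4b, without it, were followed in RAW264.7 cells, a mouse macrophage line, grown on 3 zinc implant alloys. The genes are Lilr4b, Lilrb4a, Klra2, Pirb, Sirpa and Cd300a, taken by gene name from a table of 54532 genes. They were chosen because Lilr4b and Klra2 read higher on the lithium alloy than on CaP Zn. Values of that contrast are therefore given for these 6 genes as a description, without a test. The groups are CaP Zn0.8Mn0.1Li, a zinc alloy with manganese and lithium, CaP Zn0.8Mn, a zinc alloy with manganese, and CaP Zn, zinc alone. All 3 carry a calcium phosphate (CaP) coating, so every library comes from cells on coated zinc. Cells were lysed after 3 days, each group has 2 libraries of polyadenylated RNA, and 1 transformed cell line stands for macrophages throughout. The study asked how these materials bear on macrophage polarization where bone forms.

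Inhibitory receptors of this kind carry a short tyrosine motif, the immunoreceptor tyrosine-based inhibitory motif (ITIM), in their cytoplasmic part. When a ligand is bound, Src-family kinases phosphorylate the tyrosine, and the motif recruits the phosphatases SHP-1 (Ptpn6), SHP-2 (Ptpn11) or SHIP-1 (Inpp5d), which dampen activating signals. Many of these receptors have activating relatives that lack the motif and signal through adaptors such as Tyrobp and Fcer1g. Sirpa binds CD47 and restrains phagocytosis. Pirb binds MHC class I. Lilrb4a (gp49B) binds an integrin, Cd300a binds phospholipids exposed on dying cells, and Klra2 (Ly49B) belongs to a lectin-like family otherwise known from natural killer cells.

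Library totals lay between 14944070 and 17709290 counts. Levels are given as CPM (counts scaled to library size with TMM factors), and the detection floor, taken as 3 counts, equals 0.161 CPM in the deepest library and 0.198 CPM in the shallowest. All 8 macrophage markers examined had counts in every library. The natural killer cell markers Ncr1, Klrb1c and Klrd1 had 0 counts in all 6 libraries, and summed markers of T, B, natural killer, mast and fibroblast-like cells stayed at or under 0.33 CPM. Summed osteoclast markers were higher, at 76.3 to 179 CPM across the 6 libraries, and granulocyte markers read 0.264 to 2.17 CPM. One library, CaP Zn0.8Mn replicate 1, was unlike the rest: mitochondrial genes held 7.88% of its counts and 1.82% to 2.15% of the counts elsewhere. Its correlation with each of the other libraries across genes was 0.901 to 0.920, while those 5 correlated among themselves at 0.988 to 0.991. The summed macrophage markers read 10100 CPM in that library and 10800 to 16400 CPM elsewhere, and the dendritic cell markers 21.0 CPM against 3.01 to 8.69 CPM. The part of these differences in the values below was not tested. Fold changes and edgeR calls of the contrasts with CaP Zn0.8Mn are given with and without this library, while counts of genes whose libraries do not overlap include it.

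The motif itself separates the 6 genes. The codons of the ITIM consensus (isoleucine, valine, leucine or serine, any residue, tyrosine, any pair of residues, then leucine, valine or isoleucine) were searched in the reading frame of 1 coding transcript per gene in GENCODE M21 (build GRCm38). Matches in the last 131 codons, the end of these type I proteins that holds the cytoplasmic tail, are shown with the tyrosine codon in capitals. That span was set by the farthest match shown, at Pirb codon 711, and is not a measured tail boundary. The consensus also matched farther from the end, at Lilrb4a codon 8, Pirb codon 107 and Cd300a codon 98, which are not shown. For Klra2, whose amino end lies inside the cell, the match at codon 6 is shown, and for Lilr4b, which had none near its end, its 1 match at codon 8.
Lilrb4a codon 298: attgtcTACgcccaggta
Lilrb4a codon 320: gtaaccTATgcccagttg
Klra2 codon 6: gtcactTACacaactctg
Pirb codon 711: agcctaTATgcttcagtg
Pirb codon 792: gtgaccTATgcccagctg
Pirb codon 822: agtgtaTATgctactctg
Sirpa codon 434: atcacaTACgcagacctg
Sirpa codon 475: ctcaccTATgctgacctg
Sirpa codon 499: tcagagTATgctagtgtc
Cd300a codon 260: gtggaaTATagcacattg
Cd300a codon 272: cttcacTATtcatccgtg
Lilr4b codon 8: ctgctaTACcttgctctt
The Lilr4b match at codon 8 of 303 is the only one in that transcript. It lies at the start of the protein, and Lilrb4a has a match at the same codon, so no match stood in the tail of Lilr4b. That is the textbook difference between the pair: gp49A (Lilr4b) lacks the inhibitory motifs of gp49B (Lilrb4a), so the label "inhibitory" holds for 5 of the 6 genes by sequence. The Lilrb4a tail motifs lie at chr10:51496021-51496038 in exon 8 and chr10:51496194-51496211 in exon 9, both on the plus strand. The Klra2 motif lies at chr6:131245294-131245311 in exon 2, on the minus strand.

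Some of these genes share sequence with relatives. Lilr4b (ENSMUSG00000112023, chr10:51480632-51486703, plus strand) and Lilrb4a (ENSMUSG00000112148, chr10:51490956-51496611, plus strand) are neighbours on chromosome 10. Of the distinct 50-base stretches of the Lilr4b transcript, 22.9% also occur in Lilrb4a transcripts, and for Lilrb4a 27.8% occur in Lilr4b. Another annotated gene, Gm49339, holds all 1332 stretches of the Lilrb4a transcript and 24.3% of those of Lilr4b, yet the count table gives it 0 to 4 counts per library. For Pirb (ENSMUSG00000058818, chr7:3711409-3720391, minus strand), 37.3% of stretches occur in other genes, among them Pira2, Gm14548 and Gm15922, which have at most 36 counts in a library. Klra2 (ENSMUSG00000030187, chr6:131219223-131247362, minus strand) and Sirpa (ENSMUSG00000037902, chr2:129592835-129632228, plus strand) share none. Cd300a (ENSMUSG00000034652, chr11:114890041-114904654, plus strand) shares 3.31%. The authors' rule for reads that match several genes is unknown. The split between Lilr4b and Lilrb4a, and the level of Pirb, are therefore uncertain. The size of that uncertainty was not measured, and shares of transcript stretches do not set it.

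The first contrast, CaP Zn0.8Mn0.1Li over CaP Zn, concerns manganese and lithium together and is the one the genes were chosen from. Lilr4b, Lilrb4a, Klra2 and Pirb read higher in both CaP Zn0.8Mn0.1Li libraries than in either CaP Zn library, and Sirpa and Cd300a overlapped. Those 4 of 6 genes stand beside 16.7% of the 13156 genes tested whose libraries did not overlap in the same direction (16.8% lay lower without overlap, and 0 of the 6). In bulk RNA, fewer cells with a transcript and less transcript per cell cannot be told apart.

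Lilr4b read 192 and 205 CPM on CaP Zn0.8Mn0.1Li, against 148 and 153 CPM on CaP Zn. The CaP Zn0.8Mn0.1Li libraries lay above both others, with a fitted log2 fold change of 0.40 (SE 0.23), or 1.32-fold. Lilrb4a, its motif-bearing neighbour, read 171 and 189 CPM on CaP Zn0.8Mn0.1Li, against 145 and 148 CPM on CaP Zn (log2 fold change 0.29, SE 0.18). Since the pair shares sequence, their sum was formed as well. It was 363 and 394 CPM on CaP Zn0.8Mn0.1Li, against 294 and 301 CPM on CaP Zn. The sum does not depend on how reads shared by the pair were split. Its lack of overlap follows from that of both genes and adds nothing to it. The ratio of Lilr4b to Lilrb4a in FPKM (the authors' values scaled by gene length and library size) was 1.08 and 1.05 on CaP Zn0.8Mn0.1Li, and 0.983 and 0.990 on CaP Zn.

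Klra2 had fewer reads, with 257 and 294 counts on CaP Zn0.8Mn0.1Li and 172 and 154 counts on CaP Zn. Scaled, these were 15.5 and 17.98 CPM on CaP Zn0.8Mn0.1Li, against 9.25 and 9.85 CPM on CaP Zn (log2 fold change 0.81, SE 0.53, or 1.75-fold). Its group means were 16.8 ± 1.74 CPM on CaP Zn0.8Mn0.1Li and 9.55 ± 0.426 CPM on CaP Zn (SD, n = 2 each). Pirb was scarce, at 32 and 21 counts on CaP Zn0.8Mn0.1Li and 3 and 12 counts on CaP Zn. The lower CaP Zn library thus sat at the floor, and the ratio of the summed counts, given as a description, was 3.67. In CPM, Pirb read 1.93 and 1.28 on CaP Zn0.8Mn0.1Li, against 0.161 and 0.768 on CaP Zn (log2 fold change 1.81, SE 1.29). Leaving out CaP Zn replicate 1 gave 1.06 and leaving out CaP Zn replicate 2 gave 3.26, so the size of this difference depended on 1 library.

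Sirpa read 235 and 220 CPM on CaP Zn0.8Mn0.1Li, against 229 and 257 CPM on CaP Zn (log2 fold change -0.09, SE 0.49). Cd300a read 29.3 and 26.3 CPM on CaP Zn0.8Mn0.1Li, against 27.8 and 26.7 CPM on CaP Zn (log2 fold change 0.03, SE 0.63). Both genes were interleaved between the alloys. The standard errors come from a spread estimated over all 6 libraries, CaP Zn0.8Mn replicate 1 included. Without that library the log2 fold changes were 0.40, 0.29, 0.81 and 1.84, with standard errors of 0.079 for Lilr4b, 0.081 for Lilrb4a, 0.16 for Klra2 and 0.59 for Pirb.

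**Figure D1:**
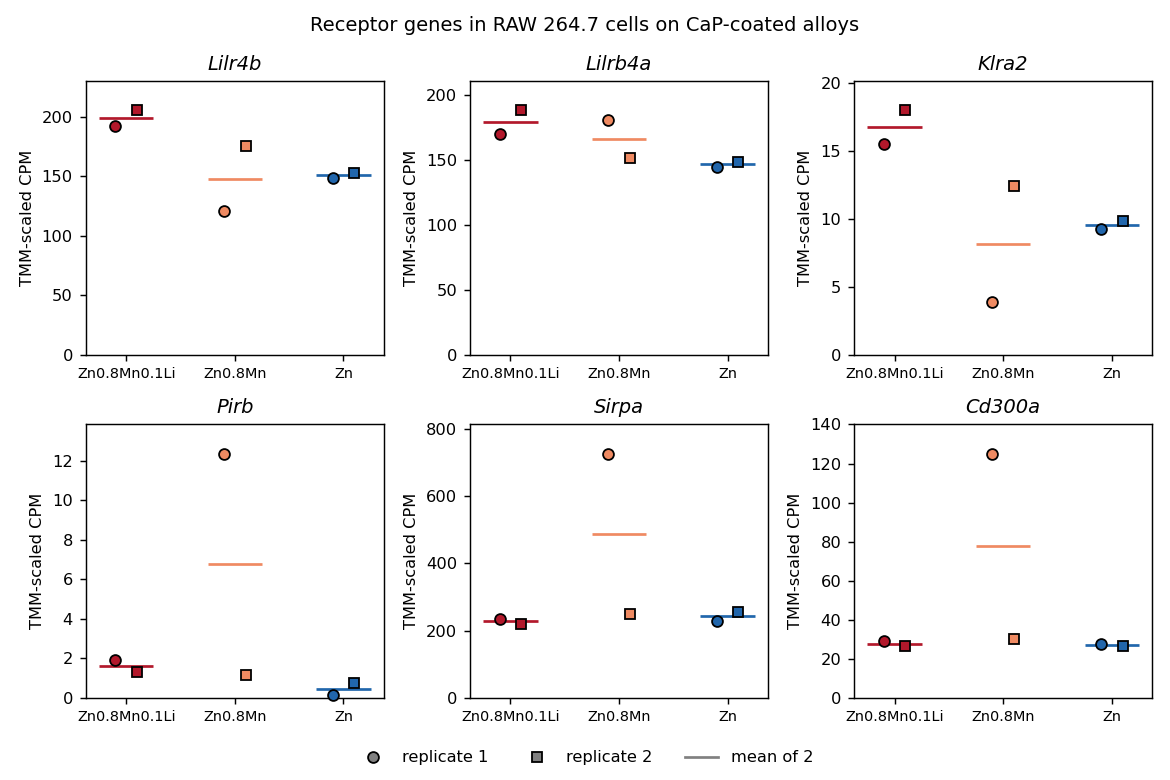
TMM-scaled CPM of the 6 receptor genes by alloy; circles are replicate 1, squares replicate 2 and bars the mean of 2. Lilr4b, Lilrb4a, Klra2 and Pirb lie higher on Zn0.8Mn0.1Li than on Zn in both libraries, and for Pirb, Sirpa and Cd300a 1 library, Zn0.8Mn replicate 1, lies far above the rest (12.4, 727 and 125 CPM).

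In FPKM, Sirpa was the highest of the 6 genes in every group. Its mean was 46.1 FPKM on CaP Zn0.8Mn0.1Li, 97.3 FPKM on CaP Zn0.8Mn and 49.1 FPKM on CaP Zn. Lilr4b and Lilrb4a followed, at 36.3 and 34.1 FPKM on CaP Zn0.8Mn0.1Li, 26.8 and 31.3 FPKM on CaP Zn0.8Mn, and 27.5 and 27.8 FPKM on CaP Zn. Their ranges overlapped each other in all 3 groups. FPKM divides by the gene length given with the counts, 5439 bases for Lilr4b, 5227 for Lilrb4a and 4911 for Sirpa. The transcripts compared above hold 1836, 1381 and 3982 bases, so the order of these 3 genes depends on the length used. Klra2 stood above Cd300a on CaP Zn0.8Mn0.1Li (8.76 and 5.83 FPKM) and below it on CaP Zn (4.99 and 5.70 FPKM), without overlap in either group. On CaP Zn0.8Mn the ranges of these genes, 2.001 to 6.517 FPKM for Klra2 and 6.31 to 25.7 FPKM for Cd300a, overlapped. Pirb was the lowest throughout, with means of 0.357 FPKM on CaP Zn0.8Mn0.1Li, 1.48 FPKM on CaP Zn0.8Mn and 0.103 FPKM on CaP Zn. The CaP Zn0.8Mn means include replicate 1. In replicate 2 alone, Sirpa was at 50.4 FPKM, Lilr4b at 32.1, Lilrb4a at 28.9, Klra2 at 6.52, Cd300a at 6.31 and Pirb at 0.259 FPKM.

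CaP Zn0.8Mn was set against CaP Zn for the effect of manganese alone. Of the 6 receptor genes 0 passed an adjusted p of 0.05 in edgeR's quasi-likelihood test, as did 0 of all 13156 genes (0%), with 207 genes at an unadjusted p under 0.05. DESeq2 called 1 gene and limma-voom 0, none of them a receptor gene here. This contrast shares its CaP Zn libraries with the contrast that chose the genes. Pirb, Cd300a and Lilrb4a read higher in both CaP Zn0.8Mn libraries than in either CaP Zn library, as did 12.5% of all genes. None of the 6 lay lower without overlap, as 12.8% of all genes did.

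These differences shrank when CaP Zn0.8Mn replicate 1 was left out. Cd300a, the phospholipid receptor, read 125 and 29.99 CPM in CaP Zn0.8Mn replicates 1 and 2, against 27.8 and 26.7 CPM on CaP Zn. Its log2 fold change of 1.51 (SE 0.64, edgeR adjusted p = 0.773) became 0.14 (SE 0.14, adjusted p = 0.967) without replicate 1. Sirpa, the CD47 receptor, read 727 and 248 CPM on CaP Zn0.8Mn, against 229 and 257 CPM on CaP Zn, where replicate 2 lay between the CaP Zn libraries. Its log2 fold change of 1.00 (SE 0.49, edgeR adjusted p = 0.773) became 0.03 (SE 0.11) without replicate 1. Pirb read 12.4 and 1.16 CPM on CaP Zn0.8Mn, against 0.161 and 0.768 CPM on CaP Zn. Its log2 fold change of 3.88 (SE 1.31, edgeR adjusted p = 0.773) became 1.37 (SE 0.73, adjusted p = 0.967), still with the remaining library above both others. In counts, CaP Zn0.8Mn replicate 2 had 18 and the CaP Zn libraries 3 and 12.

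Klra2 and Lilr4b were at their lowest in that library. Klra2 read 3.90 and 12.4 CPM on CaP Zn0.8Mn, against 9.25 and 9.85 CPM on CaP Zn, so the CaP Zn0.8Mn libraries lay on either side of CaP Zn. Its log2 fold change of -0.23 (SE 0.54, edgeR adjusted p = 0.864) turned to 0.38 (SE 0.20, adjusted p = 0.967) without replicate 1. Lilr4b read 121 and 175 CPM on CaP Zn0.8Mn, against 148 and 153 CPM on CaP Zn, and its log2 fold change of -0.03 (SE 0.23, adjusted p = 0.963) turned to 0.22 (SE 0.096, adjusted p = 0.967). Lilrb4a moved least, at 181 and 152 CPM on CaP Zn0.8Mn, against 145 and 148 CPM on CaP Zn (log2 fold change 0.18, SE 0.18, adjusted p = 0.773, and 0.05 without replicate 1). The FPKM ratio of Lilr4b to Lilrb4a was 0.640 in CaP Zn0.8Mn replicate 1 and 1.11 in replicate 2, the lowest and the highest of the 6 libraries. Without replicate 1, edgeR called 2 of all genes (0.0152%) and 0 of the 6. Without replicate 2, so that replicate 1 alone stood for the alloy, all 6 passed, at edgeR adjusted p-values between 2.1e-09 for Cd300a and 0.0183 for Lilrb4a. So did 59.3% of all genes, with the spread taken from the other 2 groups.

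**Figure D2:**
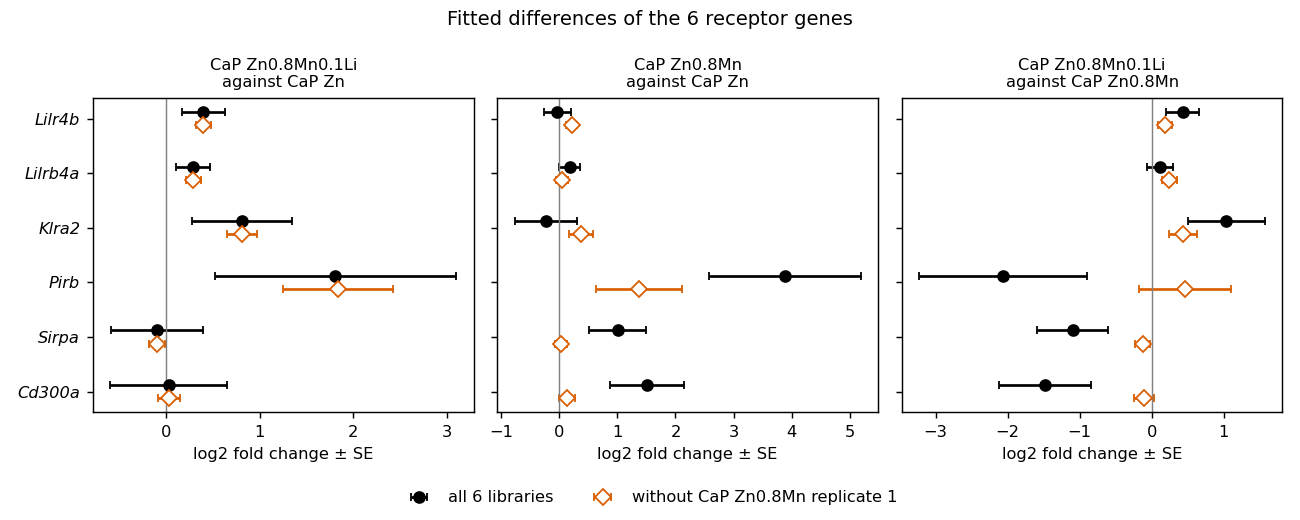
Fitted log2 fold change with its standard error for each receptor gene in the 3 contrasts, from all 6 libraries (filled circles) and without CaP Zn0.8Mn replicate 1 (open diamonds). In the left panel the estimates stay in place and their errors shrink. In the middle panel Pirb, Sirpa and Cd300a move towards 0 and Klra2 shifts from -0.23 to 0.38. In the right panel Sirpa and Cd300a move towards 0 and Pirb crosses it, from -2.07 to 0.465.

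The last contrast, CaP Zn0.8Mn0.1Li over CaP Zn0.8Mn, concerns the addition of lithium. Again 0 of the 6 receptor genes and 0 of 13156 genes (0%) passed in edgeR, with 316 genes at an unadjusted p under 0.05. DESeq2 called 3 genes and limma-voom 0, and the receptor genes were not among them. Both alloys' libraries also enter the other contrasts, and Lilr4b and Klra2 were chosen as high in these CaP Zn0.8Mn0.1Li libraries. Klra2 and Lilr4b read higher in both CaP Zn0.8Mn0.1Li libraries than in either CaP Zn0.8Mn library, as did 17.1% of all genes. Sirpa and Cd300a read lower in both, as did 17.5% of all genes.

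Klra2 read 15.5 and 17.98 CPM on CaP Zn0.8Mn0.1Li, against 3.90 and 12.4 CPM on CaP Zn0.8Mn (1.04 as a log2 fold change, SE 0.54, edgeR adjusted p = 0.680). Without CaP Zn0.8Mn replicate 1 it was 0.43 (SE 0.20, adjusted p = 1.00 in edgeR). Lilr4b read 192 and 205 CPM on CaP Zn0.8Mn0.1Li, against 121 and 175 CPM on CaP Zn0.8Mn (0.43, SE 0.23, edgeR adjusted p = 0.680), and 0.18 (SE 0.097) without that library. The lithium alloy thus held the 2 highest values of both genes among all 6 libraries, and CaP Zn0.8Mn replicate 2 the third highest. Klra2 and Lilr4b were chosen for being high in those CaP Zn0.8Mn0.1Li libraries, so this order is partly built in. Lilrb4a read 171 and 189 CPM on CaP Zn0.8Mn0.1Li, against 181 and 152 CPM on CaP Zn0.8Mn, which interleave (0.11, SE 0.18, adjusted p = 0.760, and 0.24 without replicate 1). For Pirb the sign depended on that 1 library, with a log2 fold change of -2.07 (SE 1.16, edgeR adjusted p = 0.680) with it and 0.46 (SE 0.64) without it. Sirpa (-1.10, SE 0.50, edgeR adjusted p = 0.680) and Cd300a (-1.48, SE 0.63, adjusted p = 0.680) were at -0.12 (SE 0.10) and -0.11 (SE 0.14) without it. Without that library 0 of the 6 and 0.0152% of all genes passed in edgeR. With replicate 1 as the only CaP Zn0.8Mn library, 5 of the 6, Lilrb4a being the exception, and 61.5% of all genes passed.

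The relatives of these receptors were then read in the same libraries. Of 14 Klra genes in the table, 12 had 0 counts in every library and Klra2 was the 1 expressed well enough to test, the highest count among the others being 1. Of 12 Cd300 genes, 6 were tested. All 6 read higher in CaP Zn0.8Mn replicate 1 than the mean of the other 5 libraries, by 1.70-fold for Cd300lb, an activating relative, up to 4.46-fold for Cd300a. Cd300ld read 178 CPM there and 67.0 to 79.4 CPM elsewhere, and Cd300c2 22.8 CPM there and 5.86 to 8.996 CPM elsewhere. The Sirp genes were split. Sirpa read 3.05 times the mean of the others in that library, while the activating Sirpb1a and Sirpb1c, which lack the ITIM tail, read 0.699 and 0.640 times. On CaP Zn0.8Mn0.1Li, Sirpb1a read 5.19 and 6.66 CPM, against 4.52 and 4.29 CPM on CaP Zn (log2 fold change 0.43), and Sirpb1c 2.42 and 2.20 CPM, against 1.40 and 1.66 CPM (0.59). Neither pair of groups overlapped, and neither gene passed the edgeR test (adjusted p = 1.00 for both). Among all genes of at least 5 CPM, 1.42% were as far above the other libraries in CaP Zn0.8Mn replicate 1 as Cd300a, 3.70% as far as Sirpa and 0.205% as far as Pirb. Pirb itself lies below that level, with a mean of 1.06 CPM in the other 5 libraries. Counting noise is larger there, so its share is not a like comparison. As far below were 5.38% for Klra2 and 28.6% for Lilr4b, and 41% were as far above as Lilrb4a.

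**Figure D3:**
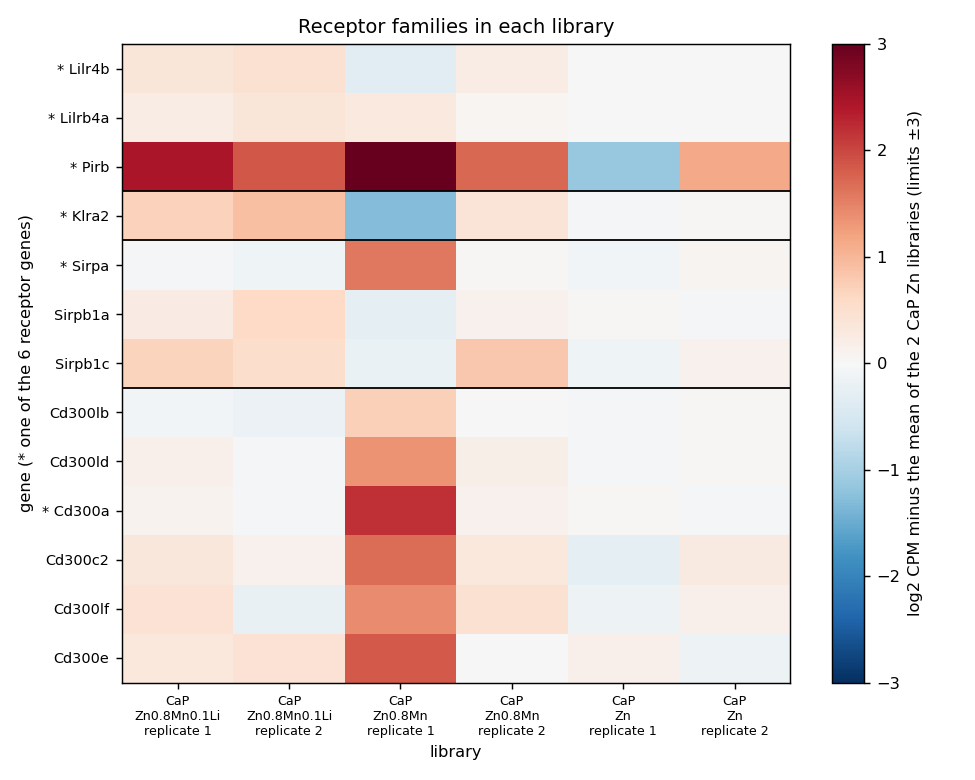
Log2 CPM of every tested gene of the Lilr and Pir, Klra, Sirp and Cd300 families in each library, relative to the mean log2 CPM of the 2 CaP Zn libraries, with colours cut off at 3 log2 units either way (Pirb in CaP Zn0.8Mn replicate 1 exceeds this). All Cd300 genes are high in CaP Zn0.8Mn replicate 1, while Klra2 is low there and Lilr4b, Sirpb1a and Sirpb1c lie slightly below the CaP Zn libraries.

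Partners of these receptors were described from 4 lists. Other inhibitory receptors of myeloid cells had 17 of 28 members tested. In CaP Zn0.8Mn0.1Li against CaP Zn, 10 had a log2 fold change above 0 and 7 below (median 0.12, against 4.74e-05 over all genes), and 0 passed in edgeR, as for all genes (0%). Among members of at least 5 CPM, the largest differences were those of Ceacam1, an adhesion receptor with ITIMs, at 9.72 and 11.25 CPM on CaP Zn0.8Mn0.1Li against 8.71 and 7.23 CPM on CaP Zn (0.39, SE 0.32), Havcr2 (TIM-3) at 10.4 and 10.1 against 10.3 and 15.9 CPM (-0.35, SE 0.59), and the lectin Clec4a2 at 7.06 and 5.32 against 5.11 and 5.95 CPM (0.16, SE 0.58). Of these, Ceacam1 alone had groups that did not overlap. Across the list 4 of 17 genes lay higher and 0 lower without overlap, against 16.7% and 16.8% of all genes. The inhibitory receptor gene Pilra, below that level and chosen after its values were seen, read 3.92 and 3.18 CPM on CaP Zn0.8Mn0.1Li, against 1.94 and 1.28 CPM on CaP Zn (1.14, SE 0.87).

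Activating receptors and their adaptors had 20 of 37 members tested, 16 with a log2 fold change above 0 and 4 below (median 0.18), and 0 passed in edgeR. Fcgr3, an activating Fc receptor, read 16 and 13.1 CPM on CaP Zn0.8Mn0.1Li, against 9.41 and 11.3 CPM on CaP Zn (0.49, SE 0.56). Hcst, the DAP10 adaptor, read 10.2 and 10.7 CPM on CaP Zn0.8Mn0.1Li, against 7.69 and 9.92 CPM on CaP Zn (0.25, SE 0.44). Fcgr1 read 15.3 and 18.5 CPM on CaP Zn0.8Mn0.1Li, against 22.6 and 17.3 CPM on CaP Zn (-0.24, SE 0.50), with overlap. Without overlap, 8 of the 20 genes lay higher and 1 lower, against 16.7% and 16.8% of all genes.

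The signalling genes around the motif, a list of kinases, phosphatases, adaptors such as Dok1 and Grb2 and their downstream effectors, had 26 of 27 members tested, 6 above 0 and 20 below (median -0.03), and 0 passed in edgeR. Without overlap 0 lay higher and 9 lower, against 16.7% and 16.8% of all genes. Ptpn6, which encodes SHP-1, read 392 and 401 CPM on CaP Zn0.8Mn0.1Li, against 499 and 430 CPM on CaP Zn (-0.23, SE 0.19). Csk, a kinase that restrains Src-family kinases, read 74.2 and 78.5 CPM on CaP Zn0.8Mn0.1Li, against 94.5 and 78.9 CPM on CaP Zn (-0.18, SE 0.23). Ptpn11, which encodes SHP-2, read 128 and 127 CPM on CaP Zn0.8Mn0.1Li, against 141 and 142 CPM on CaP Zn (-0.15, SE 0.17). The CaP Zn0.8Mn0.1Li libraries lay below CaP Zn for each of these genes. The amounts were within or just above a standard error that includes the spread of CaP Zn0.8Mn replicate 1. Without that library the fit gave -0.23 (SE 0.098) for Ptpn6, -0.18 (SE 0.096) for Csk and -0.15 (SE 0.077) for Ptpn11. Of this list 0 genes passed in edgeR without it. Reported ligands had 17 of 23 members tested, 11 above 0 and 6 below (median 0.02), and 0 passed. Without overlap 7 lay higher and 2 lower, against 16.7% and 16.8% of all genes. The class I genes H2-Q4 (61.6 and 67.2 CPM on CaP Zn0.8Mn0.1Li, against 47.2 and 54.95 CPM on CaP Zn) and H2-Q6 (93.6 and 101 against 76.1 and 81.4 CPM) were apart in all libraries, at log2 fold changes of 0.33 (SE 0.54) and 0.30 (SE 0.63). Angptl2, a secreted ligand reported for Pirb, read 5.68 and 5.62 CPM on CaP Zn0.8Mn0.1Li, against 7.31 and 7.68 CPM on CaP Zn (-0.41, SE 0.42). Without CaP Zn0.8Mn replicate 1 the standard errors of H2-Q4, H2-Q6 and Angptl2 were 0.0998, 0.086 and 0.203. Class I genes are close relatives that can share reads.

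**Figure D4:**
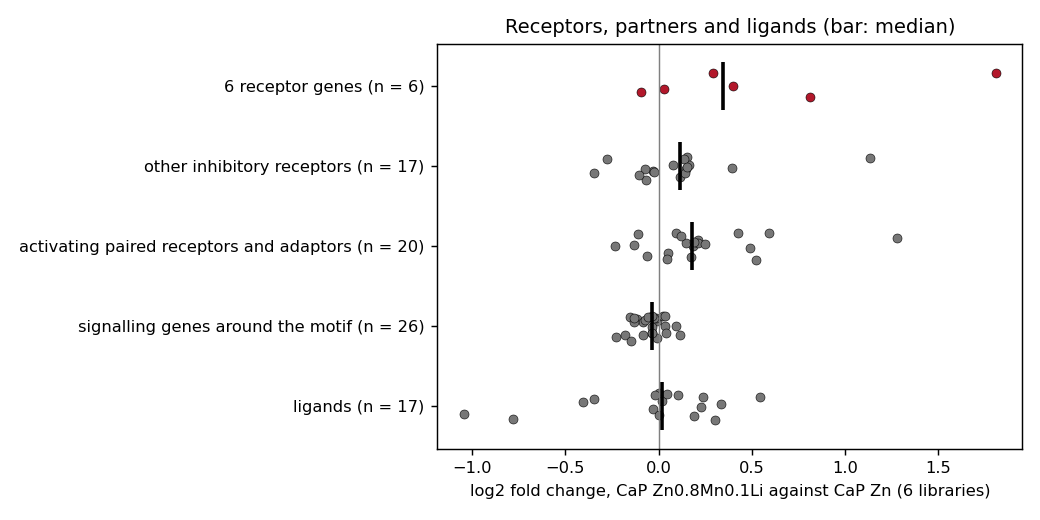
Log2 fold change of CaP Zn0.8Mn0.1Li against CaP Zn for the 6 receptor genes and for the tested genes of each partner list, 1 point a gene with a bar at the median. Medians are 0.35, 0.12, 0.18, -0.03 and 0.02 from top to bottom, and the 6 receptor genes were chosen from this contrast.

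For CaP Zn0.8Mn against CaP Zn the medians of these lists were 0.48 for other inhibitory receptors (14 of 17 above 0), 0.25 for activating receptors (12 of 20), 0.08 for the signalling genes (15 of 26) and -0.13 for ligands (8 of 17), against 0.0048 over all genes. Without CaP Zn0.8Mn replicate 1 they were 0.05, 0.19, -0.05 and 0.16. In the contrast that adds lithium to CaP Zn0.8Mn they were -0.23, -0.0028, -0.12 and 0.32 with all libraries, and -0.02, -0.07, -0.02 and -0.03 without it. In both contrasts 0 list genes passed in edgeR with or without that library.

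The promoter windows of the 2 genes that chose the set are shown because their transcripts were both highest on CaP Zn0.8Mn0.1Li. Each holds 300 bases around the RefSeq start of the gene, most of them upstream (build GRCm38.p6), and capitals mark matches on either strand to GAGGAA, the core of sites for the myeloid factor PU.1, or to TGANTCA, the AP-1 site.
Klra2, chr6:131247313-131247612, minus strand: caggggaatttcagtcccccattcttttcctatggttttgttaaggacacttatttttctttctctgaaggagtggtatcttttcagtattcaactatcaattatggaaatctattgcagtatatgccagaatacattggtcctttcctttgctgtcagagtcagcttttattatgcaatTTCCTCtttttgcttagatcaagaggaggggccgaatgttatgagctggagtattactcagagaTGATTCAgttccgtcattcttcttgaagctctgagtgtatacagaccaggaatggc
Lilr4b, chr10:51480362-51480661, plus strand: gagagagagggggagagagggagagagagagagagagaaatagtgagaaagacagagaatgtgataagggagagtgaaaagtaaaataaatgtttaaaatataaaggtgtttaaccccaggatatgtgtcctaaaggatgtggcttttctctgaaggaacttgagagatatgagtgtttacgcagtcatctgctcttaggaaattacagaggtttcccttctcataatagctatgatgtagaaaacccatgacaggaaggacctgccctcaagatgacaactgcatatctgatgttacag
Klra2 had 1 match to GAGGAA and 1 to TGANTCA, which do not overlap. Lilr4b had 0 of either, which says only that these letters are not in this window. Of 32841 mouse promoter windows of that length, 28.3% hold GAGGAA and 7.81% TGANTCA. The Pirb window held 3 matches to GAGGAA and that of Cd300a 1, with 0 to TGANTCA in both. Of the 6 genes, 4 were matched by symbol, and Lilrb4a and Sirpa were not.

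Genes with the most similar course over the libraries were sought among 9765 genes of at least 5 CPM, as the smallest root-mean-square difference of centred log2 CPM over 6 libraries. For Sirpa these were Slc44a1 (0.0275), a choline transporter gene, then Dync1h1 (0.0438) and Vps13b (0.0617). For Cd300a they were Hip1 (0.0463), Slc43a2 (0.0473) and Cadm1 (0.0668). For Lilr4b they were AC133103.1 (0.0509), Gm4459 (0.0509) and Dtd2 (0.0576), and for Lilrb4a they were Tmem74 (0.0361), Prpf39 (0.0480) and Nlk (0.0495). Klra2 had looser matches in Gm9843 (0.183), 2410004B18Rik (0.197) and the histone gene Hist2h2be (0.198), and Pirb the loosest in Ndst1 (0.615), the integrin gene Itgax (0.766) and the beta-glucan receptor gene Clec7a (0.791). Over the 5 libraries without CaP Zn0.8Mn replicate 1, Slc44a1 was again among the 3 nearest to Sirpa (0.0175), and the other members had other neighbours. The chemokine gene Ccl2 (0.0878) was then nearest to Klra2, Ankrd33b (0.0237) to Lilr4b, and the heat shock gene Hspa1b (0.256) to Pirb.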

How the data were processed

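The authors deposited whole-number read counts per gene, with no normalization, and FPKM values made from them by gene length and library size. Libraries were TruSeq polyA libraries per the labels' protocols. No source used here names the aligner or counter. Build mm9 appears in the submitters' processing notes, but the 6 genes have the same start and end in the deposited table as in GENCODE M21 (GRCm38), so positions are given as GRCm38. The table holds 0 columns of other samples.

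Groups came from the treatment label and replicate numbers from the titles. Nothing states that the 2 libraries of a group are separate cultures, so the p-values reflect library-to-library spread alone, possibly technical. Libraries of 1 group differed beyond counting noise (chi-square per gene 5.71, 248 and 10.6 on CaP Zn0.8Mn0.1Li, CaP Zn0.8Mn and CaP Zn).

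Tests used edgeR 4.0.16 in R 4.3.3 (robust quasi-likelihood, TMM, filterByExpr, group means over all 6 libraries, 3 residual degrees of freedom), two-sided, with Benjamini-Hochberg adjustment over 13156 genes and a threshold of 0.05. All 6 receptor genes passed the filter. Standard errors (SE) are the size of the log2 fold change divided by the square root of the quasi-likelihood F statistic. For the receptor genes in CaP Zn0.8Mn0.1Li against CaP Zn they describe spread and are not a test. The fit was tested on simulated data with the same spread in every library, so that test does not cover a library like CaP Zn0.8Mn replicate 1. Without a library, the same 13156 genes were refitted. Alternatives were RLE factors, library totals, DESeq2 1.42.0, limma-voom (limma 3.58.1), no filter, a mean count of at least 100, a replicate block, only the 4 libraries compared, log2(FPKM + 1) and log2(FPKM + 0.1) for genes of mean FPKM at least 1, and each library left out. Changes on the FPKM scale understate those of low genes.

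The receptor genes, lists and tests were chosen with earlier results of these data known. The naming rule takes all 6 receptor genes, every called list gene, and in each list the 3 genes of at least 5 CPM with the largest log2 fold change of CaP Zn0.8Mn0.1Li against CaP Zn, then the 3 genes most like each receptor gene. Relatives named by family were chosen after their values were seen. The list refits and the likeness without CaP Zn0.8Mn replicate 1 were added after seeing the data. Sequences are from GENCODE M21 and RefSeq.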

Additional observations from a re-analysis of the deposited data

How the results depend on the processing

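In CaP Zn0.8Mn0.1Li against CaP Zn, 0 genes passed under any alternative, and the log2 fold changes ran from 0.35 to 0.44 for Lilr4b, 0.21 to 0.35 for Lilrb4a, 0.70 to 0.90 for Klra2, 1.06 to 3.26 for Pirb, -0.17 to -0.0093 for Sirpa and -0.06 to 0.10 for Cd300a. Calls of all genes in CaP Zn0.8Mn against CaP Zn numbered 1 with DESeq2, 1 without a filter, and between 0 and 7808 with a library left out. In CaP Zn0.8Mn0.1Li relative to CaP Zn0.8Mn they numbered 3 with DESeq2, 1 without a filter, and between 0 and 8096. The highest counts came without CaP Zn0.8Mn replicate 2, where replicate 1 alone stands for that alloy and is assumed to vary like the other groups. Receptor genes then made 11 of the 12 possible calls in these contrasts, against 0 with any other library left out, a range of 0 to 11. Signs turned with the same alloy's libraries: with 1 library left out, the log2 fold change of CaP Zn0.8Mn against CaP Zn ran from -0.33 to 0.22 for Lilr4b and from -1.30 to 0.38 for Klra2. In CaP Zn0.8Mn0.1Li relative to CaP Zn0.8Mn it ran from -2.93 to 0.46 for Pirb and from -0.0102 to 0.24 for Lilrb4a. With the replicate block, 0 genes passed in any contrast. The numbers share no stated origin: deviations of same-numbered libraries correlated at -0.0939, -0.153 and 0.254 between groups. Pirb fell below the filters of the FPKM fits and of the fit at a mean count of at least 100, so these give it no fold change. Depth limits Pirb, with 15 counts in all on CaP Zn.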

Other observations

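CaP Zn0.8Mn replicate 1 differed from the other 5 libraries by more than 2-fold for many partners of these receptors, in values of 1 library without a test. Of the other inhibitory receptors, 6 of 17 read over 2-fold higher there (35.3%, against 15.4% of all genes tested) and 1 over 2-fold lower. Of the activating receptors and adaptors, 7 of 20 read over 2-fold higher (35%) and 5 lower (25%), a like share on the higher side. The sialic acid receptor gene Cd33 read 334 CPM in that library and 29.2 to 31.9 CPM elsewhere, and Vsir, an inhibitory ligand and receptor, 269 and 85.0 to 104 CPM. Of the ligands, 7 of 17 read over 2-fold lower (41.2%, against 18.2% of all genes tested). Among them B2m, the invariant chain of MHC class I, read 446 CPM there and 1322 to 1561 CPM elsewhere, and H2-D1 309 and 726 to 936.6 CPM. Of the signalling genes around the motif, 0 of 26 read over 2-fold higher and 2 lower, the adaptor genes Dok2 (45.1 CPM there and 91.5 to 107.5 CPM elsewhere) and Dok3 (35.2 and 79.0 to 92.4 CPM). These genes were chosen after their values were seen.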
